A study of Mus musculus with 6 samples.

Results

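The serine/threonine kinase mTOR works in a pair of protein complexes. Transcripts of their subunits and of the TSC-Rheb switch above them were followed in long-term haematopoietic stem cells (LT-HSCs) of wild-type and Dcaf8 knockout mice. The set holds 10 genes, chosen by name and function out of 55357 gene identifiers counted: the shared subunit genes Mtor and Mlst8, the mTORC1 genes Rptor and Akt1s1, the mTORC2 genes Rictor, Mapkap1 and Prr5, and the regulators Tsc1, Tsc2 and Rheb. All 10 matched an identifier and passed the filter on low counts, among 14592 genes tested. The genes were chosen with earlier results of these libraries known, and the choice names the knockout and wild-type columns, so all values between genotypes are given as a description and support nothing by themselves.

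The libraries came from LT-HSCs of young mice, 3 with a Dcaf8 knockout (Dcaf8 KO) and 3 wild-type, 1 mouse each. The protein made from Dcaf8 brings substrates to a CUL4-DDB1 ubiquitin ligase, and the comparison asked how its loss changes the transcriptome of these stem cells. Cells negative for lineage markers and CD48 and positive for Sca-1, c-Kit and CD150 were sorted from bone marrow, and mRNA of 50 cells was amplified at full length for each library. The sources used here give no strain, knockout allele or driver of deletion.

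mTORC1, built on the scaffold Raptor, senses growth factors, amino acids and energy and raises protein, lipid and nucleotide synthesis, while mTORC2, built on the scaffold Rictor, phosphorylates AKT, SGK and PKC kinases. The TSC1-TSC2 complex switches off the GTPase Rheb, which otherwise activates mTORC1 on lysosomes. In mice, deletion of Tsc1 drives haematopoietic stem cells out of quiescence, so mTORC1 activity is known to matter in this cell type. The activity of both complexes is set largely by protein phosphorylation, which transcript counts do not measure.

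Total counts ranged from 14461864 to 22386387 in Dcaf8 KO libraries and from 17790290 to 20881139 in wild-type libraries. Dcaf8 stood at 74.3, 38.1 and 45.2 CPM (counts scaled by the TMM method to a common library size) in Dcaf8 KO replicates 1 to 3, against 290.5, 293 and 204 CPM in wild-type replicates 1 to 3, with no overlap. Some Dcaf8 transcript thus remained in every Dcaf8 KO library, and whether it was functional was not tested. All 10 LT-HSC markers were counted, and their sum lay between 2033 and 2415 CPM of the total count in Dcaf8 KO and between 2141 and 2267 CPM in wild-type libraries. Some libraries stood apart. Wild-type replicate 2 held neutrophil transcripts, with 7634 CPM over 10 markers while the other libraries held at most 30.7 CPM, and only Mmp8 of that list was at 0 in all libraries. Dcaf8 KO replicate 3 came from a female by its sex genes (Xist at 50.7 CPM, against at most 1.24 CPM in the other libraries, which came from males). Wild-type replicate 3 held the fewest genes with a count, 15244, against 16183 to 17015 in the other libraries. Of 8 monocyte and macrophage markers, Ccr2, Cx3cr1 and Adgre1 were at 0 in all libraries, while the list summed to 23.1 to 78.3 CPM in Dcaf8 KO and 23.4 to 83.9 CPM in wild-type libraries, with Cd68 counted in every library and Ly6c2 in wild-type replicate 2 alone (41.8 CPM). Of 8 B cell markers, Ms4a1, Ebf1 and Pax5 were at 0 in all libraries, and the list summed to 82.0 to 101.8 CPM in Dcaf8 KO and 66.0 to 100.1 CPM in wild-type libraries, most of it Cd79b. Of 8 T and NK cell markers, Cd3e, Cd3g, Cd8a and Gzma were at 0 in all libraries, and the list summed to 73.5 to 176.5 CPM in Dcaf8 KO and 89.6 to 116.9 CPM in wild-type libraries, most of it Nkg7. Erythroid and megakaryocyte lists overlapped between genotypes. Of 7 stromal and endothelial markers, Cxcl12, Lepr and Cdh5 were at 0 in all libraries. That list, mostly Pecam1 and Emcn, did not overlap, at 122.0 to 155.1 CPM in Dcaf8 KO and 95.5 to 116.7 CPM in wild-type libraries. The part of these differences in the results below was not tested beyond leaving out each library.

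Mtor, Rptor and Rictor are the kinase and the scaffolds that define the complexes, and the stretches before their start sites are shown because Mtor and Rptor had the largest positive and Rictor the largest negative log2 fold change of the 10 genes. Each is the 250 bases before the gene's start in the RefSeq promoter table of GRCm38.p6, on the plus strand, at chr4:148448332-148448581 for Mtor, chr11:119602655-119602904 for Rptor and chr15:6708131-6708380 for Rictor. Capitals mark matches on either strand to the GC box GGGCGG, the ETS core CCGGAAG or the CCAAT box CCAAT.
Mtor: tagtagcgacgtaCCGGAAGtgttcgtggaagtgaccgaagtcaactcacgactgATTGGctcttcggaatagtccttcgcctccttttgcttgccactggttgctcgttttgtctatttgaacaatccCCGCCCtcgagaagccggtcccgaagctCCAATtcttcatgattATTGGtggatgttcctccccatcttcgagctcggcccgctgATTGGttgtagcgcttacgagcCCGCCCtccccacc
Rptor: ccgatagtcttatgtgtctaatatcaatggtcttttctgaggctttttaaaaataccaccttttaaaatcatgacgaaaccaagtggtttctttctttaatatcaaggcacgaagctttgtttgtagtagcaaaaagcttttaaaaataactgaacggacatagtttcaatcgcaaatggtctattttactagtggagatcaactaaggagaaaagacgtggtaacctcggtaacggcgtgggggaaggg
Rictor: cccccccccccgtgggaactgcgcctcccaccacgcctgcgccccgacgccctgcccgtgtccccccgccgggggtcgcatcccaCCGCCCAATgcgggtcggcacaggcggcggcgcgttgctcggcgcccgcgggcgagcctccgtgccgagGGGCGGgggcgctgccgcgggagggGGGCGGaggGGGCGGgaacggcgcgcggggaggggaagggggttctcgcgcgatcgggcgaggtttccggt
The Rictor stretch was 81.2% G and C with 40 CG dinucleotides, the Mtor stretch 54.4% with 19 and the Rptor stretch 37.6% with 9, where the median of 32851 promoter stretches of the same length was 6 CG dinucleotides. Mtor held 4 CCAAT boxes, 2 GC boxes and 1 ETS core. Rictor held 4 GC boxes and 1 CCAAT box, of which 1 GC box and the CCAAT box shared 2 bases. Rptor held none of these letters, and none of the 3 held the E-box CACGTG, the cAMP response element TGACGTCA or the TATA box TATAAA. Among all promoter stretches 32.7% held a GC box, 33.8% a CCAAT box, 6.91% the ETS core, 6.02% the E-box, 1.55% the cAMP response element and 12.4% the TATA box.

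Mean levels of the scaffolds differed in opposite directions between genotypes. Rictor transcripts were lower in every Dcaf8 KO library than in any wild-type library, Mtor transcripts were higher in every Dcaf8 KO library than in any wild-type library, and Rptor had a higher mean in Dcaf8 KO cells with overlapping ranges. By the quasi-likelihood test of edgeR, adjusted over all genes by Benjamini-Hochberg, 0 of the 10 genes passed, where 0% of all tested genes passed. Dcaf8 itself did not pass, with a log2 fold change of -2.28 and an edgeR adjusted p of 0.739, the lowest over all genes tested. Failing this test therefore does not show that a gene was unchanged. At an unadjusted p under 0.05 edgeR listed 2 of the 10, Rictor and Rptor, where 5.82% of all genes lay under that value. DESeq2 called 1 of the 10, Rictor, where it called 0.861% of 17779 genes, and limma-voom called 0 of the 10 and 0% of all genes. Ranges did not overlap for 2 of the 10 genes, against 10.3% of all genes tested, 5.91% with Dcaf8 KO above and 4.43% with Dcaf8 KO below. In bulk libraries, fewer cells that express a gene and less RNA per cell cannot be told apart.

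**Figure D1:**
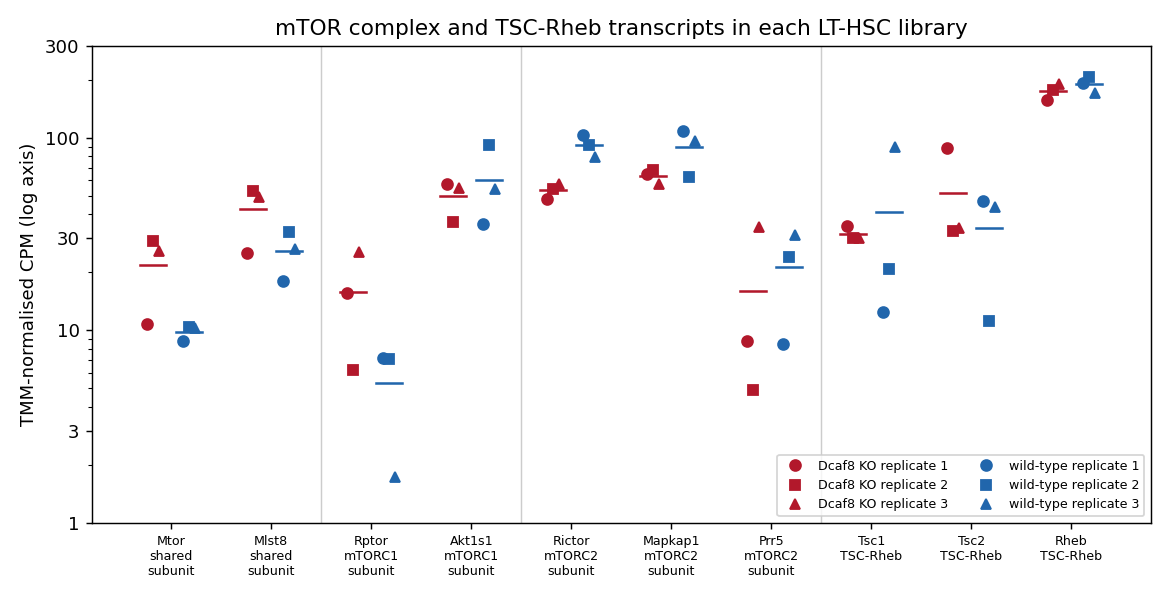
Each point is the level of 1 transcript in 1 library, in TMM-normalised CPM on a log axis, with Dcaf8 KO libraries in red left of wild-type libraries in blue, horizontal bars for the mean of 3 libraries, and genes ordered by role. Rictor ranges from 47.9 to 57.6 CPM in Dcaf8 KO and from 79.3 to 103 CPM in wild-type libraries, while Tsc1 in wild-type libraries spans 12.4 to 89.5 CPM.

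Mtor (ENSMUSG00000028991, chromosome 4) encodes the kinase that both complexes share. It stood at 10.7, 29.1 and 25.8 CPM in Dcaf8 KO replicates 1 to 3, against 8.84, 10.4 and 10.3 CPM in wild-type replicates 1 to 3. The wild-type libraries lay close together, with a coefficient of variation of 8.83%, while Dcaf8 KO replicate 1 lay just above them and the other Dcaf8 KO libraries well above. Mtor averaged 21.9 ± 9.79 CPM in Dcaf8 KO and 9.84 ± 0.869 CPM in wild-type cells (SD, n = 3 each), a log2 fold change of 1.09 ± 0.53 (SE). The estimate was 1.46 without Dcaf8 KO replicate 1 and 0.89 without the female library, Dcaf8 KO replicate 3. No exon of another annotated gene overlaps Mtor.

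Mlst8 (ENSMUSG00000024142, chromosome 17) encodes the WD-repeat protein that sits on the kinase domain in both complexes. It stood at 25.2, 52.8 and 49.4 CPM in Dcaf8 KO replicates 1 to 3, against 18.02, 32.5 and 26.4 CPM in wild-type replicates 1 to 3. Dcaf8 KO replicates 2 and 3 were again the high libraries, and Dcaf8 KO replicate 1 lay within the wild-type range. The log2 fold change was 0.67 ± 0.41 (SE, n = 3 each). Exons of Bricd5 cover 997 of the 4435 exon bases of Mlst8 on the opposite strand, and Bricd5 itself had 219 to 391 counts in Dcaf8 KO and 166 to 292 in wild-type libraries. With the strand setting of the counting not given, reads from that overlap may belong to Mlst8 or to Bricd5.

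Rptor (ENSMUSG00000025583, chromosome 11) encodes Raptor, the scaffold through which mTORC1 recruits its substrates. Its levels were 15.6, 6.19 and 25.4 CPM in Dcaf8 KO replicates 1 to 3, against 7.15, 7.13 and 1.73 CPM in wild-type replicates 1 to 3. Dcaf8 KO replicates 1 and 3 lay above every wild-type library, and Dcaf8 KO replicate 2 lay inside the wild-type range. The lowest value rested on 34 reads, in wild-type replicate 3, the library with the fewest genes counted. Rptor averaged 15.7 ± 9.61 CPM in Dcaf8 KO and 5.33 ± 3.13 CPM in wild-type cells (SD, n = 3 each), a log2 fold change of 1.66 ± 0.68 (SE) with an edgeR adjusted p of 0.841. It was 1.23 without wild-type replicate 3 and 1.15 without Dcaf8 KO replicate 3. The antisense gene Rptoros, which overlaps 84 exon bases, had at most 1 count in a library.

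Akt1s1 (ENSMUSG00000011096, chromosome 7) encodes PRAS40, a substrate and inhibitor of mTORC1. It stood at 57.5, 36.7 and 54.7 CPM in Dcaf8 KO replicates 1 to 3, against 35.6, 92.0 and 54.3 CPM in wild-type replicates 1 to 3. The highest library was wild-type replicate 2, the one with neutrophil transcripts, and the ranges overlapped. The log2 fold change was -0.27 ± 0.39 (SE, n = 3 each), and 0.17 without that library. Exons of Tbc1d17 share 89 bases with Akt1s1 on the opposite strand, and Tbc1d17 had 1211 to 2789 counts in Dcaf8 KO and 1021 to 2290 in wild-type libraries.

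Rictor (ENSMUSG00000050310, chromosome 15) encodes the scaffold that defines mTORC2. It stood at 47.9, 54.2 and 57.6 CPM in Dcaf8 KO replicates 1 to 3, against 103, 91.3 and 79.3 CPM in wild-type replicates 1 to 3. All Dcaf8 KO libraries were lower, and libraries of 1 genotype lay close together, with coefficients of variation of 9.30% in Dcaf8 KO and 13.2% in wild-type. Rictor averaged 53.2 ± 4.95 CPM in Dcaf8 KO and 91.4 ± 12.1 CPM in wild-type cells (SD, n = 3 each), so that the Dcaf8 KO level was 0.583 of the wild-type level. Between 779 and 1884 reads stood behind each value, and no annotated gene overlaps Rictor. The log2 fold change was -0.78 ± 0.23 (SE) with an edgeR adjusted p of 0.739, and it lay between -0.87 and -0.69 with each library left out in turn. It was -0.78 without the library that held neutrophil transcripts and -0.85 without the female library. By unadjusted edgeR p, Rictor (0.00974) ranked 190 over all genes tested, where Dcaf8 had 5.4e-05. The adjustment gave both the same value, so the shared adjusted p of 0.739 does not place Rictor beside Dcaf8.

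DESeq2 gave Rictor an adjusted p of 0.0121. The DESeq2 call ended without Dcaf8 KO replicate 1 (adjusted p = 0.0913), Dcaf8 KO replicate 2 (0.0658) or wild-type replicate 2 (0.0740), and over the 6 fits that left out 1 library the DESeq2 adjusted p ranged from 0.00678 to 0.0913. By edgeR the adjusted p of Rictor was between 0.485 and 1.00 with each library left out. The biological coefficient of variation that edgeR estimated for Rictor was 22.8%, against 34.0% on the trend for genes of its abundance and 75.1% in common over all genes.

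Mapkap1 (ENSMUSG00000038696, chromosome 2) encodes mSIN1, which holds mTORC2 together and positions its substrates. It stood at 64.9, 67.9 and 57.7 CPM in Dcaf8 KO replicates 1 to 3, against 108, 62.5 and 96.7 CPM in wild-type replicates 1 to 3. Wild-type replicates 1 and 3 lay above all Dcaf8 KO libraries, and wild-type replicate 2, which held neutrophil transcripts, lay among them. The log2 fold change was -0.49 ± 0.27 (SE, n = 3 each), -0.70 without wild-type replicate 2, and it was -0.33 when wild-type replicate 1 was left out.

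Prr5 (ENSMUSG00000036106, chromosome 15) encodes Protor-1, a Rictor-binding subunit of mTORC2. Its levels were 8.81, 4.87 and 34.3 CPM in Dcaf8 KO replicates 1 to 3, against 8.501, 24.1 and 31.3 CPM in wild-type replicates 1 to 3. Each genotype held both high and low libraries, and the log2 fold change of -0.34 ± 0.73 (SE, n = 3 each) was -1.58 without Dcaf8 KO replicate 3 and 0.03 without wild-type replicate 3.

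Among the regulators, Tsc1 (ENSMUSG00000026812, chromosome 2) encodes hamartin, which stabilises its partner tuberin. It stood at 34.7, 30.1 and 30.3 CPM in Dcaf8 KO replicates 1 to 3, against 12.4, 20.8 and 89.5 CPM in wild-type replicates 1 to 3. The Dcaf8 KO libraries were nearly equal and lay inside the wild-type range, which spanned 7.23-fold, the widest wild-type span of the 10 genes. The Tsc1 log2 fold change was -0.38 ± 0.69 (SE, n = 3 each) and turned to 0.92 without wild-type replicate 3, and limma-voom with sample weights gave 0.34.

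Tsc2 (ENSMUSG00000002496, chromosome 17) encodes tuberin, the GTPase-activating protein for Rheb. Its levels were 88.2, 32.9 and 34.0 CPM in Dcaf8 KO replicates 1 to 3, against 46.7, 11.2 and 43.9 CPM in wild-type replicates 1 to 3. The highest library was Dcaf8 KO replicate 1 and the lowest wild-type replicate 2. The Tsc2 log2 fold change of 0.68 ± 0.59 (SE, n = 3 each) was 0.00 without Dcaf8 KO replicate 1. Exons of Pkd1 cover 693 of 9620 exon bases of Tsc2 on the opposite strand, with 319 to 418 Pkd1 counts in Dcaf8 KO and 174 to 1133 in wild-type libraries, so reads from that overlap may belong to Tsc2 or to Pkd1.

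Rheb (ENSMUSG00000028945, chromosome 5) encodes the GTPase that activates mTORC1. It stood at 158, 178 and 191 CPM in Dcaf8 KO replicates 1 to 3, against 193, 207 and 170.0 CPM in wild-type replicates 1 to 3. The ranges overlapped and the libraries lay close together, with coefficients of variation of 9.58% in Dcaf8 KO and 9.92% in wild-type. The log2 fold change was -0.12 ± 0.16 (SE, n = 3 each) and lay between -0.19 and -0.04 with each library left out.

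Over the 10 genes, 4 had a positive and 6 a negative log2 fold change, with a median of -0.19, beside 50.9% positive and a median of 0.01 over all genes tested. The 3 mTORC2 genes had negative values, the shared subunit genes positive values, and the mTORC1 genes 1 of each. The median turned to 0.36 without wild-type replicate 3, to 0.06 when wild-type replicate 2 was left out and to 0.09 with limma-voom and sample weights, so its sign depends on these choices.

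**Figure D2:**
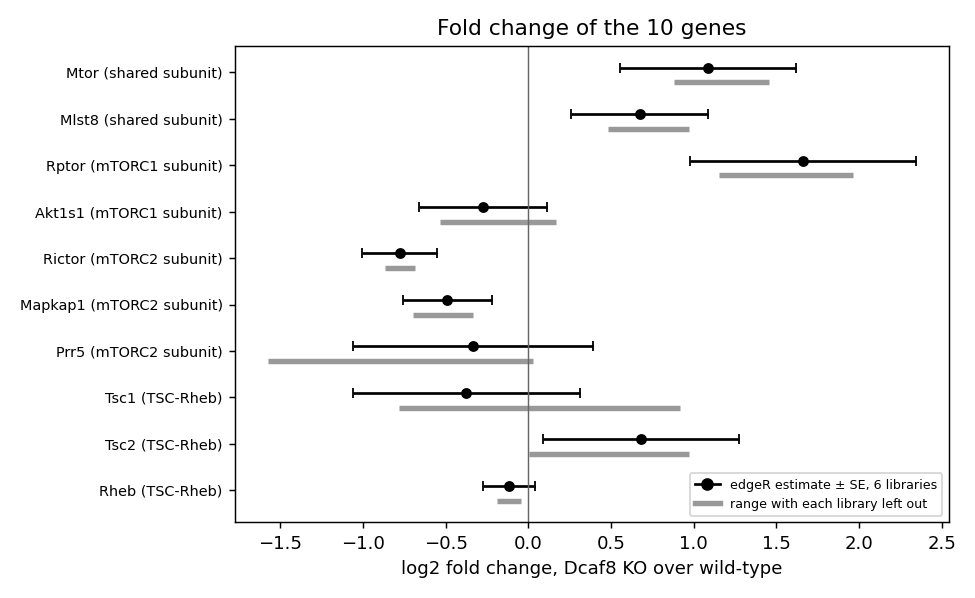
Points give the log2 fold change of Dcaf8 KO over wild-type from edgeR with its standard error (3 libraries per genotype), and grey bars the range of the estimate when each of the 6 libraries is left out in turn. The bars of Rictor (-0.87 to -0.69), Mtor (0.88 to 1.46) and Rptor (1.15 to 1.97) stay on 1 side of 0, and those of Akt1s1, Prr5 and Tsc1 cross it.

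The balance of mTORC1 to mTORC2 scaffold transcripts was read within each library, where library scaling cancels. The log2 ratio of Rptor to Rictor, per kilobase of exon and with a prior count of 2, was -1.28, -2.77 and -0.85 in Dcaf8 KO replicates 1 to 3, against -3.50, -3.33 and -5.11 in wild-type replicates 1 to 3. Every Dcaf8 KO library lay above every wild-type library. The pair joins the largest positive and the largest negative log2 fold change of the 10 genes, so the direction was set by the single genes. Rptor alone overlapped, with Dcaf8 KO replicate 2 (6.19 CPM) inside the wild-type range. The value of wild-type replicate 3 rested on 34 Rptor reads. How often other pairs of genes lie apart was not computed. On the linear scale, with no prior count added, Rictor stood 2.44, 6.96 and 1.80 times above Rptor in Dcaf8 KO libraries, against 11.5, 10.2 and 36.6 times in wild-type libraries. The log2 ratio averaged -1.63 ± 1.01 in Dcaf8 KO and -3.98 ± 0.98 in wild-type cells (SD, n = 3 each), a difference of 2.35. The difference was 1.78 without wild-type replicate 3 and 2.92 without Dcaf8 KO replicate 2.

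Against the kinase itself, the log2 ratio of Rictor to Mtor was 1.403, 0.15 and 0.41 in Dcaf8 KO replicates 1 to 3, against 2.79, 2.38 and 2.196 in wild-type replicates 1 to 3, again without overlap. The log2 ratio of Rptor to Mtor overlapped, at 0.12, -2.62 and -0.44 in Dcaf8 KO libraries and -0.72, -0.96 and -2.92 in wild-type libraries. The log2 ratio of Tsc1 to Tsc2 also overlapped, at -1.64, -0.43 and -0.47 in Dcaf8 KO libraries and -2.205, 0.59 and 0.73 in wild-type libraries. These ratios are built from the same counts as the single genes and are no separate evidence.

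**Figure D3:**
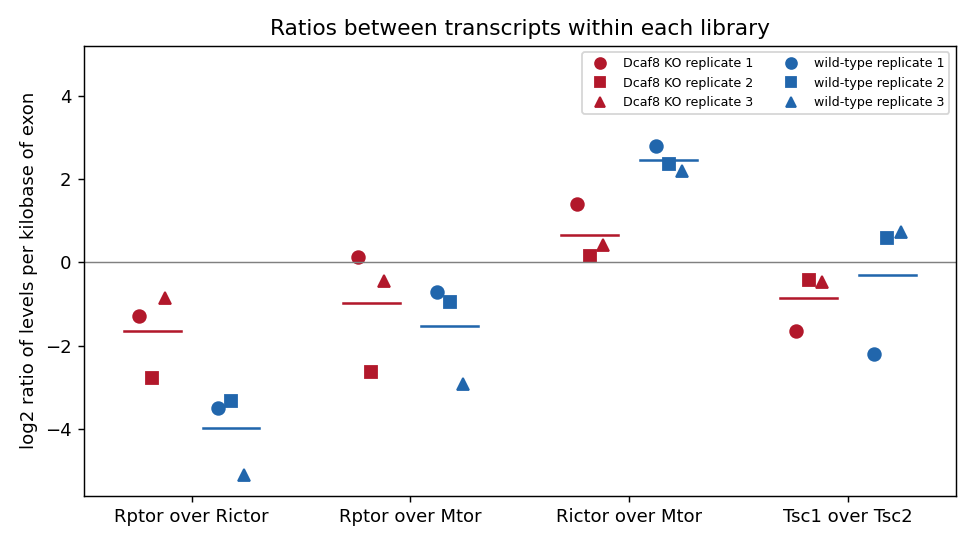
Each point is the log2 ratio of a pair of transcripts per kilobase of exon in 1 library, with Dcaf8 KO in red left of wild-type in blue and bars for the mean of 3 libraries. For Rptor over Rictor the Dcaf8 KO libraries sit between -2.77 and -0.85, all above the wild-type libraries, which sit between -5.11 and -3.33.

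Levels of different genes were compared as CPM per kilobase of exon, with exon lengths from the GENCODE M21 annotation. In Dcaf8 KO cells the order was Rheb (22.7 ± 2.18), Akt1s1 (16.2 ± 3.68), Mapkap1 (15.6 ± 1.29), Mlst8 (9.58 ± 3.40), Prr5 (8.34 ± 8.33), Tsc2 (5.38 ± 3.29), Rictor (3.14 ± 0.292), Tsc1 (2.68 ± 0.220), Mtor (2.17 ± 0.969) and Rptor (1.17 ± 0.714 CPM per kilobase, SD, n = 3). In wild-type cells Rheb (24.6 ± 2.44), Mapkap1 (21.98 ± 5.88) and Akt1s1 (19.7 ± 9.34) also led, followed by Prr5 (11.1 ± 6.07), Mlst8 (5.79 ± 1.64), Rictor (5.40 ± 0.712), Tsc2 (3.53 ± 2.05) and Tsc1 (3.46 ± 3.57), with Mtor (0.973 ± 0.0859) and Rptor (0.396 ± 0.232 CPM per kilobase, SD, n = 3) last. Mtor and Rptor thus had the lowest group means per length in both genotypes. Within Dcaf8 KO cells the ranges of Mtor and Tsc1 overlapped, and in Dcaf8 KO replicate 2 Mtor (2.88 CPM per kilobase) stood above Tsc1 (2.55 CPM per kilobase) and Prr5 (2.54 CPM per kilobase).

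Most neighbours in these orders overlapped. In Dcaf8 KO libraries only Rheb and Akt1s1, Mapkap1 and Mlst8, and Tsc2 and Rictor were apart, and in wild-type libraries only Tsc1 and Mtor, and Mtor and Rptor. Summed over the mTORC2 genes the level was 23.4, 22.5 and 35.5 CPM per kilobase in Dcaf8 KO replicates 1 to 3, against 37.3, 33.4 and 44.8 in wild-type replicates 1 to 3. Summed over the mTORC1 genes it was 19.9, 12.4 and 19.7 CPM per kilobase in Dcaf8 KO libraries, against 12.1, 30.5 and 17.8 in wild-type libraries. Both sums overlapped between genotypes.

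**Figure D4:**
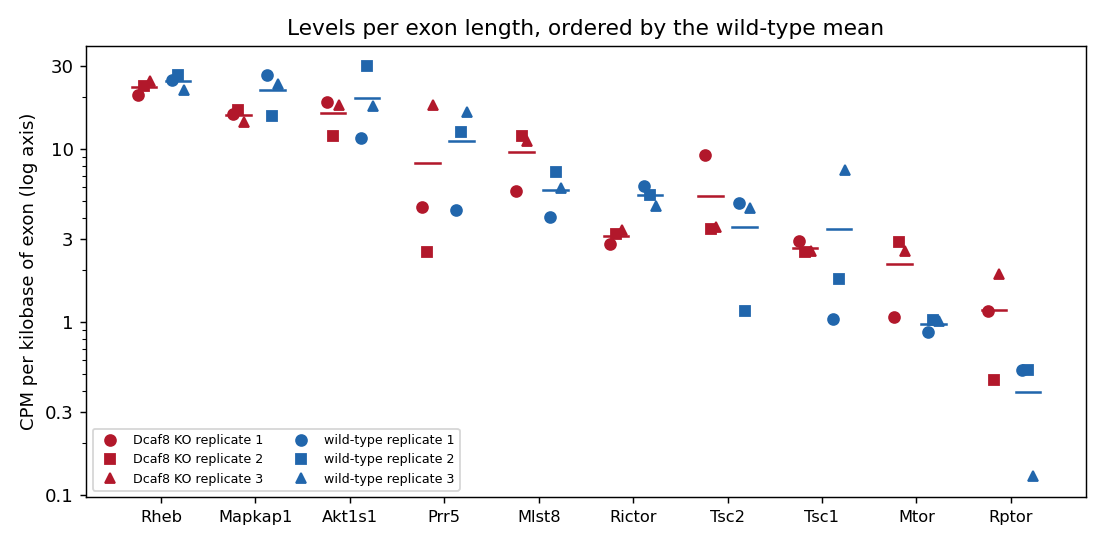
Levels in CPM per kilobase of exon on a log axis, 1 point per library, with Dcaf8 KO in red left of wild-type in blue, bars for means of 3 libraries and genes ordered by the wild-type mean. Rheb tops the order in both genotypes and Rptor is last, with Dcaf8 KO means of 22.7 and 1.17 and wild-type means of 24.6 and 0.396 CPM per kilobase.

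The pathway around the complexes was followed in 8 further lists with 96 genes, of which 90 were tested. None of the 90 passed edgeR's test (0 at adjusted p under 0.05), 4 lay at an unadjusted p under 0.05 (among them Akt1, Pik3r2 and Telo2, named after their values were seen), which is no larger a share than the 5.82% of all genes, and both DESeq2 and limma-voom called 0 with all 6 libraries. Of the 90, 45 had positive and 45 negative log2 fold changes, with a median of 0.00. Ranges did not overlap for 10 of the 90, 5 in each direction, against 10.3% of all genes tested. Rragd, Wdr59 and Ddit4l did not pass the filter on low counts, and Irs1, Eif4ebp3 and Sgk2 had no count in any library. The genes named first in each list below are the 3 with the highest mean CPM, whatever their change.

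Among other complex and assembly genes, 2 of 7 had positive values (median -0.08). Tti2 and Tti1, co-chaperones that assemble mTOR and related kinases, stood at 95.7 ± 6.80 and 53.2 ± 8.999 CPM in Dcaf8 KO, against 110 ± 3.30 and 52.9 ± 20.3 CPM in wild-type cells. Deptor, which encodes an inhibitor bound to both complexes, stood at 85.0 ± 14.8 CPM in Dcaf8 KO and 88.2 ± 30.7 CPM in wild-type cells (SD, n = 3 each).

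On the amino acid arm, 4 of 12 tested genes of the Rag GTPases, the Ragulator and folliculin had positive values (median -0.10). The Ragulator genes Lamtor5 and Lamtor3 stood at 172 ± 26.8 and 136 ± 36.7 CPM in Dcaf8 KO, against 157 ± 22.5 and 152 ± 14.95 CPM in wild-type cells. Flcn, which encodes folliculin, a GTPase-activating protein for RagC and RagD, stood at 170 ± 58.7 CPM in Dcaf8 KO and 157 ± 21.6 CPM in wild-type cells (SD, n = 3 each). Of the GATOR, KICSTOR and sensor genes 12 of 16 had positive values (median 0.43). Sec13 and Seh1l, which GATOR2 shares with the nuclear pore, stood at 180 ± 17.6 and 185 ± 54.7 CPM in Dcaf8 KO, against 237 ± 43.5 and 181 ± 29.8 CPM in wild-type cells. Sesn1, a sestrin that restrains GATOR2, stood at 271, 180 and 182 CPM in Dcaf8 KO, against 140, 165 and 169 CPM in wild-type replicates 1 to 3, without overlap.

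On the growth factor arm, 8 of 14 tested genes of PI3K-AKT input had positive values (median 0.24). Akt1, a substrate of mTORC2 and an inhibitor of TSC2 and PRAS40, stood at 294, 326 and 343 CPM in Dcaf8 KO replicates 1 to 3, against 188, 265 and 259 CPM in wild-type replicates 1 to 3. All Dcaf8 KO libraries were above all wild-type libraries, with a log2 fold change of 0.43 ± 0.16 (SE) and an edgeR adjusted p of 0.837. Akt2 stood at 159 ± 33.4 CPM in Dcaf8 KO and 138 ± 34.4 CPM in wild-type cells, and Pik3r1, a PI3K regulatory subunit, stood at 153 ± 11.3 CPM in Dcaf8 KO and 177 ± 25.2 CPM in wild-type cells (SD, n = 3 each).

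Of AMPK and other stress input genes 3 of 10 tested had positive values (median -0.05). The AMPK subunit genes Prkag1 and Prkab1 stood at 123 ± 38.3 and 91.8 ± 8.52 CPM in Dcaf8 KO, against 147 ± 13.1 and 97.97 ± 23.5 CPM in wild-type cells. Cab39, a partner of the AMPK-activating kinase LKB1, stood at 145 ± 39.0 CPM in Dcaf8 KO and 108 ± 34.2 CPM in wild-type cells (SD, n = 3 each), with overlapping ranges.

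Downstream, 10 of 15 tested mTORC1 substrate and effector genes had positive values (median 0.08). Rps6, the ribosomal protein whose phosphorylation reports mTORC1 activity, stood at 712 ± 52.3 CPM in Dcaf8 KO and 717 ± 21.3 CPM in wild-type cells. Rps6kb2, an S6 kinase, stood at 496 ± 31.9 CPM in Dcaf8 KO and 469 ± 64.9 CPM in wild-type cells. Maf1, a repressor of RNA polymerase III, stood at 268 ± 27.8 CPM in Dcaf8 KO and 252 ± 27.7 CPM in wild-type cells (SD, n = 3 each). All 6 tested mTORC2 substrate kinases outside AKT had negative values, from -0.57 to -0.01 (median -0.12), and all overlapped between genotypes. Prkcd stood at 116 ± 13.04 CPM in Dcaf8 KO and 132 ± 16.1 CPM in wild-type cells, Sgk3 at 79.8 ± 12.0 CPM in Dcaf8 KO and 80.1 ± 23.2 CPM in wild-type cells, and Prkca at 40.4 ± 15.6 CPM in Dcaf8 KO and 62.2 ± 56.3 CPM in wild-type cells (SD, n = 3 each). Of transcription factors and targets linked to mTORC1 6 of 10 had positive values (median 0.10). Srebf2, a regulator of sterol synthesis, stood at 407 ± 54.2 CPM in Dcaf8 KO and 347 ± 129 CPM in wild-type cells, and the stress-responsive factor gene Atf4 at 320 ± 104 CPM in Dcaf8 KO and 411 ± 142 CPM in wild-type cells. The serine synthesis gene Psat1 stood at 179 ± 36.9 CPM in Dcaf8 KO and 157 ± 29.5 CPM in wild-type cells (SD, n = 3 each).

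**Figure D5:**
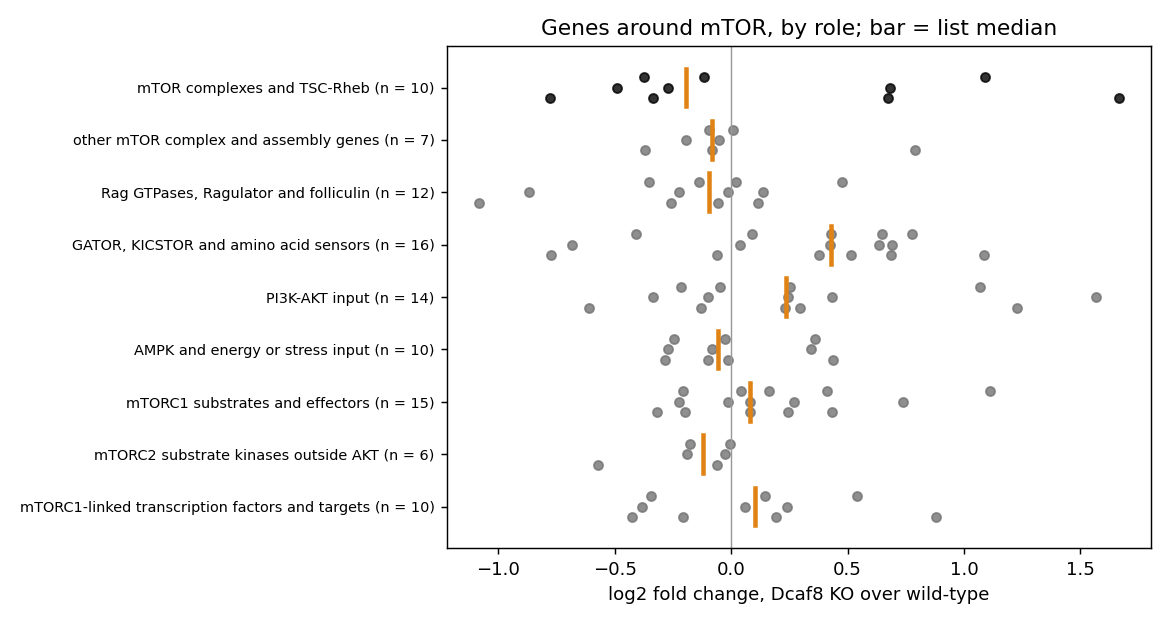
Each point is the log2 fold change of 1 tested gene, Dcaf8 KO over wild-type, for the 10 genes (top, black) and 8 lists around them (grey), and each orange bar is the list's median. Medians lie between -0.19 for the 10 genes and 0.43 for the GATOR, KICSTOR and sensor genes, beside 0.01 over all genes tested.

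The genes whose levels ran most like those of the scaffolds were sought among 10074 genes with a mean of at least 10 CPM, by Pearson's r of log2 CPM over the 6 libraries. For Rptor they were Gm17178 (r = 0.988), Gm14453 (r = 0.985) and Vps26b (r = 0.984). For Rictor they were Ccnl1 (r = 0.987), which encodes cyclin L1, Tjap1 (r = 0.983) and Nsmaf (r = 0.982). Pearson's r does not weigh the size of a change. Gm17178 spanned 20.6 to 34.6 CPM and Gm14453 54.1 to 99.0 CPM, where Rptor spanned 1.73 to 25.4 CPM. Ccnl1 spanned 371 to 488 CPM, where Rictor spanned 47.9 to 103 CPM. With 6 libraries, 99 genes had an r over 0.9 with Rptor and 61 with Rictor, and the libraries also share their genotype groups and depth, so these names are a description.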

How the data were processed

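Whole-number read counts per Ensembl gene, 1 column per library, were used as the authors deposited them. Trimmomatic 0.39, HISAT2 2.2.1, Picard 2.26.1, HTSeq 1.99.2, DESeq2 1.38.3 and build mm39 are named without roles per the submitters' processing notes. The sources used here give no annotation release or strand setting. Without molecular identifiers, amplified reads cannot be taken as separate molecules.

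Counts were fitted with edgeR 4.0.16 (R 4.3.3): default filterByExpr (minimum count 10, minimum total 15), TMM scaling, robust dispersions and a robust quasi-likelihood fit (legacy off) with genotype as the only term. P-values were adjusted by Benjamini-Hochberg over all 14592 genes tested, with a threshold of 0.05. DESeq2 1.42.0 and limma 3.58.1 (voom with sample weights) were alternatives. Standard errors came from the F statistic. The fits were also run on counts simulated from the edgeR fit, as a check of the code. The only condition set was the sign of large planted changes, so power and false calls were not judged.

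Symbols came from a table of gene names (94.1% of 55357 identifiers matched). Exon lengths (union of all exons) and overlaps came from GENCODE M21 on GRCm38, another build than the counts, which changes levels per length but not fold changes. Log2 ratios used a prior count of 2, and linear ratios used none. Promoter stretches came from RefSeq (GRCm38.p6), where all 10 genes matched. Genes of each pathway list were named by abundance, up to 3 per list, and likeness was computed for Rptor and Rictor. Some genes of the lists are not reported here by name. The genes and lists were chosen with earlier results of these data known. P-values measure the spread between 3 mice per genotype, which includes the sampling of 50 cells and amplification.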

Additional observations from a re-analysis of the deposited data

How the results depend on the processing

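Of 14 alternatives, 1 called any gene: DESeq2 called 153 genes, 1 of the 10 (Rictor) and 0 pathway genes. Leaving out each library in turn, with DESeq2 added after seeing the data, gave 0 genes by edgeR and, by DESeq2, 335, 322 and 284 without Dcaf8 KO replicates 1 to 3 and 770, 416 and 399 without wild-type replicates 1 to 3. These fits called 0 to 1 of the 10 genes and 0 to 2 pathway genes. The member that DESeq2 called then was Rictor in 3 fits, Mtor without Dcaf8 KO replicate 1, Mapkap1 without wild-type replicate 2, and none without Dcaf8 KO replicate 2. The pathway genes were Ddit4l without Dcaf8 KO replicate 2, Pik3cb and Srebf2 without wild-type replicate 1, and Depdc5 without wild-type replicate 2. Ddit4l stood at 18.1 CPM in wild-type replicate 1 and at most 0.905 CPM elsewhere, and Pik3cb at 24.0, 0 and 0 CPM in wild-type replicates 1 to 3. No share of all genes is given, as the number tested in each fit was not recorded. The median log2 fold change of the 10 genes, -0.19, ranged from -0.26 to 0.36 with each library left out. The difference in the log2 ratio of Rptor to Rictor, 2.35, ranged from 1.78 to 2.92 and kept its sign. With the longest transcript as length, 2 genes, Mlst8 and Rictor, changed places in the wild-type order. Log2 fold changes of Mtor, Mlst8, Rptor, Rictor, Mapkap1, Tsc2 and Rheb kept their sign in all 14 alternatives. For Tsc2 and Rheb this means little. Tsc2 fell to 0.0044 without Dcaf8 KO replicate 1, and Rheb stayed between -0.19 and -0.04.

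With the replicate number as a block, edgeR called 0 genes, 0 of the 10 and 0 pathway genes, and the median of the 10 was -0.16. The labels state no pairing, and deviations of same-numbered libraries correlated at 0.0593, -0.0381 and 0.00580 over genes for numbers 1 to 3, so the numbers were not taken to pair mice. With 50 cells per library, transcripts at a few CPM, such as Rptor, can be missed by sampling of cells and molecules. The causes of these shifts were not tested.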

Other observations

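Values of pathway genes whose ranges did not overlap between genotypes follow for 8 genes, chosen after their values were seen, where 10 of 90 tested genes were so, against 10.3% of all genes. Pik3r2, a PI3K regulatory subunit gene, stood at 40.6, 28.0 and 66.8 CPM in Dcaf8 KO, against 13.6, 21.8 and 23.8 CPM in wild-type replicates 1 to 3. Telo2, which encodes the partner of Tti1 and Tti2 in assembling mTOR, stood at 74.9, 51.4 and 48.0 CPM in Dcaf8 KO, against 40.5, 34.8 and 27.2 CPM in wild-type replicates 1 to 3. Akt1 and Sesn1 also lay higher in all Dcaf8 KO libraries.

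On the other side lay Fnip1, which encodes a folliculin partner, at 11.9 ± 6.31 CPM in Dcaf8 KO and 23.7 ± 5.97 CPM in wild-type cells. Tbc1d7, the gene of the remaining TSC complex subunit, stood at 27.2 ± 3.61 CPM in Dcaf8 KO and 35.6 ± 3.45 CPM in wild-type cells (SD, n = 3 each). Sec13 and Tti2 also lay lower in all Dcaf8 KO libraries. None of these 8 genes passed edgeR's or DESeq2's test with all 6 libraries.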
